A study of Mus musculus with 21 samples.

Results

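The genes described here encode the machinery of oxidative phosphorylation. They are the 97 of 47729 gene identifiers in the count files whose symbols begin with Nduf, Uqcr, Cox4 to Cox8 or Atp5, together with Sdha, Sdhb, Sdhc and Sdhd. Another 7 names that match but end in -ps, the mark of a pseudogene, were left out, so the rule uses symbols alone. By the complex each belongs to, 47 members fall to complex I, 4 to complex II, 8 to complex III, 21 to complex IV and 17 to complex V. Of these, 91 had enough counts to be tested, and the other 6 (Cox4i2, Cox7b2, Cox8b, Cox8c, Ndufa11b and Ndufb4c) held between 0 and 61 counts over the 16 libraries. The names do not all stand for subunits. Among the 91, 8 are Ndufaf assembly factors, 4 are isoforms best known from other tissues, 2 are duplicated copies of a subunit gene, 1 is the supercomplex factor Cox7a2l and 1, Atp5s, is a relative of ATP synthase subunits, which leaves 75 subunits of the ubiquitous complexes. Sequence-similar copies (Ndufa11b, Ndufb4c, Ndufs6b and Cox6c2) may share reads with their parent genes, so their counts are uncertain.

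The study asked what the RNA binding protein PTBP1 does in germinal centre B cells, the B cells that mutate and are selected in the spleen after immunisation. Sequenced cells came from C57BL/6 mice given NP-KLH in alum 7 days earlier, and no age of the mice is stated in the labels. They form 4 groups of 4 libraries each. Light zone (LZ) cKO, LZ control, dark zone (DZ) cKO and DZ control libraries cross the 2 zones of the germinal centre with genotype. In cKO mice (CD79acre/+Ptbp1fl/fl) 1 Cd79a allele carries Cre, which is active from early B cell development, and both Ptbp1 alleles are floxed. Control mice (CD79a+/+Ptbp1fl/fl) carry the floxed Ptbp1 alleles without Cre, so the effect of the Cre allele and that of the Ptbp1 deletion cannot be told apart. Cells were pooled from 3 to 5 mice that shared genotype and sex. Both zones of a pool were sorted together, so 8 pools gave 16 libraries over 4 sort days, with male mice on days 1 and 2 and female mice on days 3 and 4. Library numbers are the sort days.

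Complexes I to IV form the respiratory chain of the inner mitochondrial membrane. Complex I (NADH dehydrogenase) and complex II (succinate dehydrogenase) feed electrons into the chain, complex III (the cytochrome bc1 complex) and complex IV (cytochrome c oxidase) pass them on to oxygen, and complexes I, III and IV pump protons. Complex V (ATP synthase) lets the protons flow back and makes ATP. Complex II is also an enzyme of the tricarboxylic acid (TCA) cycle and is encoded wholly in the nucleus, whereas a few subunits of the other complexes are encoded by mitochondrial DNA. In germinal centres, dark zone cells divide and mutate their antibody genes, and light zone cells are selected by antigen and T cell help.

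The libraries held 26823882 to 34240096 counts in genes, and the members took 1.13% to 1.74% of them. Values are CPM, counts scaled to a common library size and corrected for library composition. They compare libraries for 1 gene, not genes with each other, since they are not divided by transcript length. The labels held in the target of the deletion: Ptbp1 had 98.6 ± 16.4 CPM in LZ cKO libraries against 382 ± 28.9 in LZ control libraries, and 103 ± 9.45 in DZ cKO against 444 ± 31.4 in DZ control (mean ± SD, n = 4 each). They also held in the zones, because all 8 light zone marker genes were higher in light zone libraries of either genotype. Differences are log2 fold changes ± standard error from edgeR's quasi-likelihood test over all 15789 tested genes. A gene is said to have risen or fallen where its Benjamini-Hochberg adjusted p is under 0.05.

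Of the members that fell in the light zone, 7 did so in both genotypes, and they carry the main result described further on. The RefSeq promoter table for GRCm38 has a row for 6 of the 7. Their 250 bases upstream of the annotated start are printed 5′ to 3′ on the strand of the gene. Capitals mark GCGCATGCGC, the palindrome bound by the transcription factor NRF1, its core CATGCGC, and CCGGAAG, a site of the ETS family, on either strand. The core lies within the palindrome, so a palindrome is also counted as a core.
Ndufa11, chr17:56717512-56717761, plus strand: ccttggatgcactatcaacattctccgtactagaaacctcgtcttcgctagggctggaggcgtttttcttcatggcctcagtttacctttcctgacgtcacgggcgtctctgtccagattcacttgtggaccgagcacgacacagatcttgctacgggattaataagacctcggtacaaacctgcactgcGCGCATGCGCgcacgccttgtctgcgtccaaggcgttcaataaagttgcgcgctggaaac
Sdhb, chr4:140961021-140961270, plus strand: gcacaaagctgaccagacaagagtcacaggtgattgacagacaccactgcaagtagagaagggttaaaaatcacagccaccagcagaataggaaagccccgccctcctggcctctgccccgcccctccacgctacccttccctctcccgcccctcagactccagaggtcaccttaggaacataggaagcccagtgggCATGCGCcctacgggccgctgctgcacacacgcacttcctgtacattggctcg
Sdhd, chr9:50603850-50604099, minus strand: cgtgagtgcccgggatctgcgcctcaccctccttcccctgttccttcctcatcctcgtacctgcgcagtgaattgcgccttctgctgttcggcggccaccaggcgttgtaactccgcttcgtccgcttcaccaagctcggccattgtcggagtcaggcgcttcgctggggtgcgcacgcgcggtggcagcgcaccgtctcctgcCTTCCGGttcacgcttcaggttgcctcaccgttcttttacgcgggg
Cox6a1, chr5:115348959-115349208, minus strand: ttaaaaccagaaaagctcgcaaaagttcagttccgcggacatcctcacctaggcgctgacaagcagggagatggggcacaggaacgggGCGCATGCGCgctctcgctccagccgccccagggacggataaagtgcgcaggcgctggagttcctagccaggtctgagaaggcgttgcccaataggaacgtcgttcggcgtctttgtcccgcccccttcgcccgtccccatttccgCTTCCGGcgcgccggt
Cox7a2l, chr17:83514334-83514583, minus strand: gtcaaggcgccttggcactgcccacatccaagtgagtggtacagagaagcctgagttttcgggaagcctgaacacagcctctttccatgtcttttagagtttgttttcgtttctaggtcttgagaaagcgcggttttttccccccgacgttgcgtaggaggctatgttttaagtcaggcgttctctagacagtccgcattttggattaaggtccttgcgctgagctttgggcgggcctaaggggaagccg
Atp5f1, chr3:105959264-105959513, minus strand: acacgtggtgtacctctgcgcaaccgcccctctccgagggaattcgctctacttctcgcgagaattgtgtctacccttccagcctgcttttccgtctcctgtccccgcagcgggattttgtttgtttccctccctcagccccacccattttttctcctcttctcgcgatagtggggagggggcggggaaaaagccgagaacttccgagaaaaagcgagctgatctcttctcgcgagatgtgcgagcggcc

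Ndufa11 and Cox6a1 hold the whole palindrome, Sdhb holds the core alone, Sdhd and Cox6a1 hold an ETS match, and the windows of Cox7a2l and Atp5f1 hold none of these letters. NRF1 and ETS factors are known activators of respiratory chain genes. The palindrome occurred in 5 of the 76 members with a promoter row (6.58%), compared with 1.70% of 10430 tested genes. Its core occurred in 11 members (14.5%) and in 5.89% of tested genes. CCGGAAG occurred in 13 members (17.1%) and in 14.1% of tested genes. CCAAT, the letters read by NF-Y, occurred in 44.7% of the members and 36.4% of tested genes, and the E-box CACGTG, read by MYC, in 7.89% and 8.20%. AAGATGG, read by YY1, was in none of the 76 windows and in 4.50% of tested genes. All windows end at the annotated start, so letters downstream of it were not searched. Among the 15 members with a row that fell in the light zone in a genotype, 2 held the palindrome, 3 the core and 3 the ETS letters. Matches are descriptions of the windows and were not tested for binding.

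The oxidative phosphorylation genes that passed the test between zones were lower in the light zone in both genotypes. In cKO mice 17 of 91 tested members fell in the light zone relative to the dark zone and 0 rose, where 4.18% of all tested genes fell and 4.91% rose. In control mice 8 members fell and 0 rose, where 3.33% of all tested genes fell and 4.16% rose. Most members lay on the low side: 84 of 91 log2 fold changes were negative in cKO mice and 82 of 91 in control mice. The median member stood at -0.23 in cKO and -0.21 in control mice, beside 0.00 for all tested genes in each genotype. In these bulk libraries, fewer cells of a type and less RNA per cell cannot be told apart.

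Each of the 5 complexes had at least 1 called member in each genotype. Complex II had the lowest median in cKO mice, -0.39, with 2 of 4 members called, and -0.27 with 2 of 4 in control mice. Complex IV had -0.33 and 5 of 17 called in cKO and -0.30 and 2 of 17 in control mice. Complex V had -0.27 and 4 of 17 in cKO and -0.21 and 2 of 17 in control mice. Complex III had -0.22 and 1 of 8 in cKO and -0.15 and 1 of 8 in control mice. Complex I, with most members, had -0.19 and 5 of 45 in cKO and -0.19 and 1 of 45 in control mice. These medians describe the members and were not tested against each other. Restricted to the 75 subunits, the counts were 15 lower in cKO and 7 lower in control mice, with 0 higher in either.

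**Figure D1:**
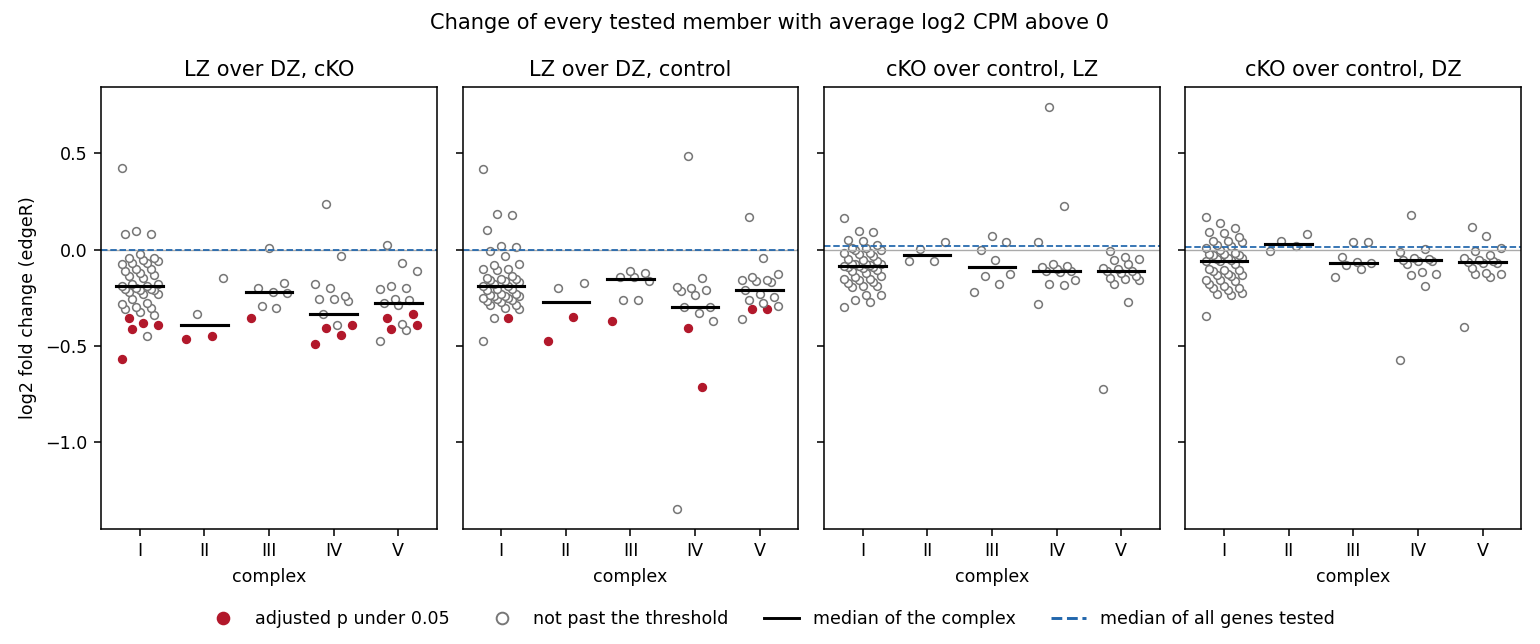
Log2 fold change of each tested member with an average log2 CPM above 0 (vertical axis), by complex (horizontal axis), for the light against the dark zone in cKO and in control mice and for cKO against control in each zone. Filled red points passed the adjusted p of 0.05, black bars are the medians of the complexes and the dashed line is the median of all tested genes; red points appear in the 2 zone panels only, all below 0 (17 members in cKO, of which Ndufa4l2 is not drawn, and 8 in control mice).

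Counts of called members moved with the fit. Over the tested members, the deviations of libraries of 1 sort day from their group means correlated at anywhere from -0.687 to 0.715 between groups. The pattern over members on a day was thus not alike in all groups. A correlation over genes does not measure a shift that all members share on a day. With the sort day as a block 32 members fell and 1 rose in cKO mice (8.99% and 8.28% of all tested genes), and 17 fell and 1 rose in control mice (6.53% and 7.19%). Without sort day 2, 4 members passed in cKO and 5 in control mice, and without sort day 1, 13 and 2. Without LZ cKO library 2 the called members in cKO mice were 4, namely Sdhb, Sdhd, Atp5a1 and Ndufa4l2. Without DZ cKO library 4 they were 4 also, Sdhb, Sdhd, Atp5a1 and Atp5b, and without DZ cKO library 3 they were 6, Sdhb, Sdhd, Atp5a1, Cox7a2l, Uqcrc1 and Ndufa4l2. In control mice, Sdhb and Cox7a2l were left without LZ library 2 or DZ library 3. Atp5a1 stood beside them without DZ library 1, Cox6a1 without DZ library 4, and Ndufa11 and Cox6a1 without LZ library 1, for counts of 2, 3, 3 and 4. Sdhb kept its call in both genotypes without any 1 library or sort day. Sdhd did so in cKO and Cox7a2l in control mice. Atp5a1 kept its call in cKO mice without any 1 library, though not without sort day 1. Each of the other calls was lost without at least 1 library, with Ndufs8 in cKO and Atp5f1 in control mice holding in 1 of 8 such fits. A count that uses no fit gave the same direction: the 4 light zone libraries lay wholly below the 4 dark zone libraries for 28 members in cKO mice (6.87% of all tested genes) and 18 in control mice (6.83%). The reverse held for 0 members in cKO mice (7.44%) and 1 in control mice (7.49%). At an unadjusted p under 0.05, 40 members were lower and 1 higher in cKO mice (11.8% and 11.4% of all tested genes), and 36 lower and 2 higher in control mice (9.22% and 10.6%).

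Complex II has 4 subunits, and all 4 had a negative log2 fold change in both genotypes. Sdhb, its iron-sulphur subunit, had 308, 271, 316 and 338 CPM in the 4 LZ cKO libraries and 323, 285, 314 and 308 in LZ control, against 383, 396, 473 and 446 in DZ cKO and 451, 381, 436 and 438 in DZ control. Every light zone library lay below every dark zone library, and the 2 genotypes overlapped within each zone. Sdhb fell by 27.4% in the light zone of cKO mice (log2 fold change -0.46 ± 0.09, edgeR adjusted p = 0.00364) and by 27.9% in control mice (-0.47 ± 0.09, adjusted p = 0.00333). Over the alternatives its adjusted p ran from 1.01e-05 to 0.159 in cKO and from 7.43e-06 to 0.166 in control mice. Sdhd, a membrane anchor that binds ubiquinone, had 149.98, 138, 172 and 158 CPM in LZ cKO and 150.03, 154, 177 and 162 in LZ control, against 195, 192, 227 and 230.2 in DZ cKO and 226, 186, 212 and 197 in DZ control. It too had no overlap between zones, and its log2 fold change was -0.45 ± 0.09 in cKO (edgeR adjusted p = 0.00596) and -0.35 ± 0.09 in control mice (adjusted p = 0.0295). In control mice the call was lost without LZ library 1, 2 or 4 or DZ library 1, 3 or 4, and its adjusted p ran from 0.00352 to 0.258 over the alternatives.

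Neither of the remaining subunits passed. Sdhc, the other membrane anchor, averaged 76.8 ± 8.04 CPM in LZ cKO and 79.9 ± 4.63 in LZ control, against 96.9 ± 14.5 in DZ cKO and 91.6 ± 2.90 in DZ control. Its log2 fold change was -0.34 ± 0.10 in cKO mice (edgeR adjusted p = 0.0517, or 0.0111 with the sort-day block) and -0.20 ± 0.10 in control mice (adjusted p = 0.304). Sdha, the flavoprotein that oxidises succinate, averaged 464 ± 53.4 CPM in LZ cKO and 451 ± 40.6 in LZ control, against 515 ± 30.3 in DZ cKO and 509 ± 39.8 in DZ control. Its log2 fold changes of -0.15 ± 0.09 in cKO and -0.17 ± 0.09 in control mice did not pass (edgeR adjusted p = 0.379 and 0.324).

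In complex V, the members that fell lie in the catalytic head and in the peripheral stalk that holds it. Atp5a1, the alpha subunit of the head, had 1305, 1264, 1481 and 1467 CPM in LZ cKO and 1395, 1313, 1519 and 1432 in LZ control, against 1743, 1662, 1951 and 1706 in DZ cKO and 1735, 1618, 1816 and 1848 in DZ control, with no overlap between the zones. Its log2 fold change was -0.36 ± 0.08 in cKO (edgeR adjusted p = 0.00891) and -0.31 ± 0.08 in control mice (adjusted p = 0.0221). Atp5b, the catalytic beta subunit, had 1502, 1429, 1827 and 1809 CPM in LZ cKO and 1599, 1519, 1847 and 1832 in LZ control, against 2079, 1982, 2394 and 2279 in DZ cKO and 1999, 1992, 2153 and 2181 in DZ control. Days 3 and 4, those of female mice, were high in every group, and the zones did not overlap in either genotype. Its log2 fold change was -0.41 ± 0.10 in cKO (edgeR adjusted p = 0.0137) and -0.29 ± 0.10 in control mice (adjusted p = 0.0839, or 0.000890 with the sort-day block).

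Atp5f1, subunit b of the peripheral stalk, had 358, 308, 347 and 378 CPM in LZ cKO and 381, 341, 363 and 359 in LZ control, against 412, 404, 471 and 467 in DZ cKO and 487, 386, 474 and 443 in DZ control. All 8 light zone libraries lay below all 8 dark zone libraries. The log2 fold change was -0.33 ± 0.09 in cKO (edgeR adjusted p = 0.0260) and -0.31 ± 0.09 in control mice (adjusted p = 0.0425). Atp5j, subunit F6 of the same stalk, fell in cKO mice (-0.39 ± 0.11, edgeR adjusted p = 0.0338) and in control mice passed with the sort-day block alone (-0.28 ± 0.11, adjusted p = 0.152, or 0.0273 with it). Atp5o, the stalk's cap, passed with the block alone in cKO mice (-0.29, edgeR adjusted p = 0.0602, or 0.0101 with the block). The 3 genes for the c subunit of the rotor had values of both signs. Atp5g3 had a log2 fold change of -0.27 in cKO and -0.21 in control mice, and Atp5g1 had 0.02 and 0.17, with an edgeR adjusted p over 0.05 for each. Atp5g2 stayed at or below 3.82 CPM in all libraries.

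In complex III the calls lay in the 2 core proteins, and none of the 5 accessory subunits was called. Uqcrc1, a core protein, had 417, 377, 441 and 452 CPM in LZ cKO and 429.8, 414, 448 and 456 in LZ control, against 493, 500.1, 539 and 623 in DZ cKO and 546, 477, 534 and 541 in DZ control. Light and dark zone libraries did not overlap in either genotype. The log2 fold change was -0.35 ± 0.08 in cKO (edgeR adjusted p = 0.0153) and -0.26 ± 0.08 in control mice (adjusted p = 0.0751, or 0.00628 with the sort-day block). Uqcrc2, its partner, had 161, 158, 189 and 188 CPM in LZ cKO and 162, 143, 183 and 188 in LZ control, against 184, 206, 237 and 224 in DZ cKO and 221, 197, 234 and 222 in DZ control. For Uqcrc2 the zones overlapped in cKO mice, where library 1 of the dark zone was low, and not in control mice. Its log2 fold change was -0.29 ± 0.10 in cKO (edgeR adjusted p = 0.0994, or 0.00608 with the block) and -0.37 ± 0.10 in control mice (adjusted p = 0.0425). Uqcrfs1, the Rieske iron-sulphur protein, passed with the block alone, at -0.31 in cKO (edgeR adjusted p = 0.0688, or 0.0166) and -0.26 in control mice (0.138, or 0.0448).

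Complex IV held the member of largest called change in control mice. Cox7a2l, also named SCAF1, links complex III to complex IV in supercomplexes. It had 175, 140.1, 121 and 156 CPM in LZ cKO and 136, 125, 129 and 117 in LZ control, against 210.1, 193, 183 and 244 in DZ cKO and 244, 185, 198 and 204 in DZ control. No light zone library reached the lowest dark zone library, and the LZ control libraries lay closest to each other. The log2 fold change was -0.49 ± 0.12 in cKO (edgeR adjusted p = 0.0172) and -0.71 ± 0.12 in control mice (adjusted p = 0.00151). The cKO call was lost without LZ cKO library 2 or DZ cKO library 4, at an adjusted p of up to 0.0671. The difference in zone change between genotypes was not called (interaction 0.23 ± 0.17, edgeR adjusted p = 1.00).

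Cox6a1, the ubiquitous isoform of subunit VIa, had 266, 226, 264 and 269.5 CPM in LZ cKO and 289, 252, 302 and 270.4 in LZ control, against 329, 321, 350.3 and 346 in DZ cKO and 419.7, 299, 396 and 359.7 in DZ control. In cKO mice the zones did not overlap, and in control mice DZ library 2 fell among the light zone libraries. The log2 fold change was -0.39 ± 0.10 in cKO (edgeR adjusted p = 0.0195) and -0.41 ± 0.10 in control mice (adjusted p = 0.0179). Cox6b1, which lies at the contact between the monomers of the complex IV dimer, fell in cKO mice (-0.41 ± 0.11, edgeR adjusted p = 0.0331) and had -0.37 ± 0.11 in control mice (adjusted p = 0.0591, or 0.0101 with the block). Cox8a, the ubiquitous isoform of subunit VIII, passed with the block alone in both genotypes (-0.26 in cKO, edgeR adjusted p = 0.194 or 0.00928, and -0.30 in control mice, 0.166 or 0.00744).

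Ndufa4 was first assigned to complex I and is now placed in complex IV, where it was counted here. It had 183, 139, 170.1 and 164 CPM in LZ cKO and 204, 176, 216 and 202 in LZ control, against 195, 217, 247 and 236 in DZ cKO and 262, 194, 249 and 221 in DZ control. LZ cKO averaged lowest of the 4 groups, without overlap with DZ cKO, whereas the control zones overlapped. Its log2 fold change between zones was -0.44 ± 0.11 in cKO (edgeR adjusted p = 0.0192) and -0.21 ± 0.11 in control mice (adjusted p = 0.303), and the difference between these was not called (interaction -0.23 ± 0.16, edgeR adjusted p = 1.00). Within the light zone cKO stood -0.28 ± 0.11 from control (edgeR adjusted p = 0.274). Cox7a2, subunit VIIa of most tissues, passed in cKO mice with the block alone (-0.39, edgeR adjusted p = 0.0827, or 0.0207). Cox6c and Cox5a did so too, at -0.25 and -0.26 (edgeR adjusted p with the block 0.0152 and 0.0333).

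**Figure D2:**
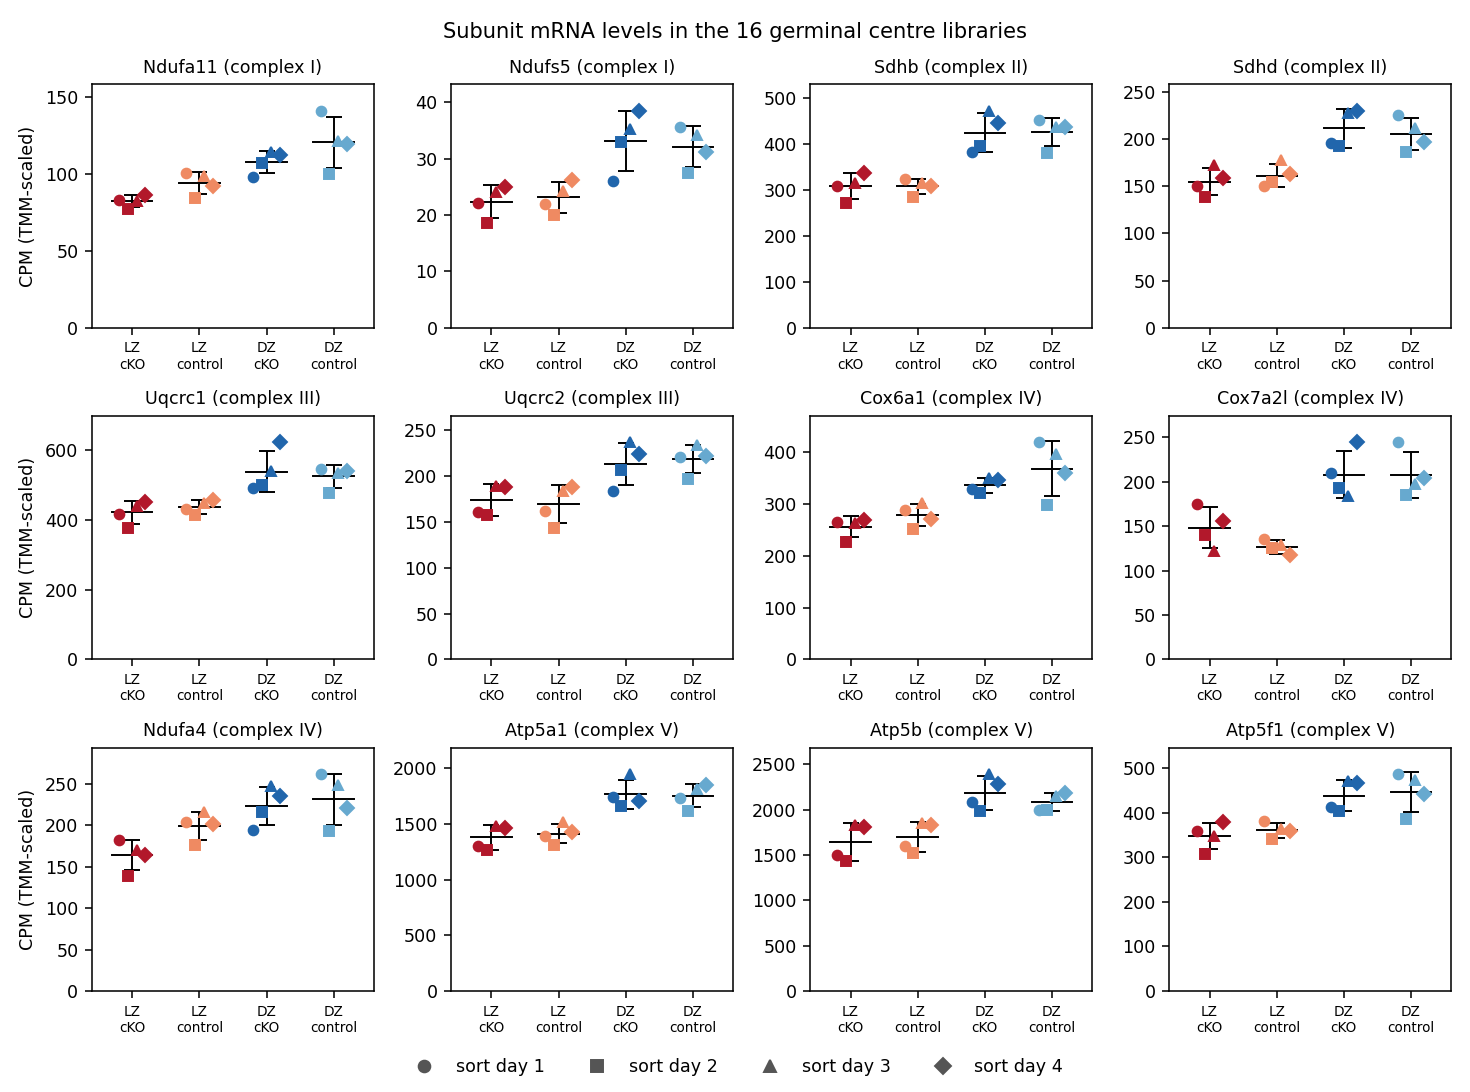
CPM (vertical axes) of 12 members in the 16 libraries, by group (horizontal axes), with 1 symbol per sort day and the mean ± SD of 4 libraries in each group. The LZ cKO and LZ control libraries lie below the DZ cKO and DZ control libraries in most panels, and the 2 genotypes of a zone overlap.

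The isoforms of complex IV known from other tissues were close to silent. Cox7b2, Cox8b and Cox8c, which belong mainly to testis or muscle, had 0 counts in all 16 libraries, and Cox4i2, a lung isoform, had 29 counts in all. Cox6a2 and Cox7a1, the heart and muscle isoforms of subunits VIa and VIIa, reached at most 1.26 and 1.37 CPM. Ndufa4l2, a relative of Ndufa4 induced by low oxygen, held 4 counts over the 4 LZ cKO libraries and 27 over LZ control, against 71 over DZ cKO and 40 over DZ control. It passed in cKO mice (edgeR adjusted p = 0.0212), and no fold is given because 2 LZ cKO libraries held none. Cox6b2, the testis isoform of subunit VIb, ran from 0.507 to 3.43 CPM in LZ cKO and 0.684 to 2.22 in LZ control, against 1.89 to 2.49 in DZ cKO and 2.36 to 3.72 in DZ control. It passed in control mice with the block alone (-1.34 ± 0.46, edgeR adjusted p = 0.100, or 0.0463). The list of isoforms and paralogues also holds ubiquitous members. Of its 16 tested genes, 6 fell in cKO and 3 in control mice, where 4.18% and 3.33% of all tested genes fell. Ndufa4l2 was the tissue isoform among them. The others were Cox6a1, Cox6b1, Cox7a2l, Ndufa4 and Ndufa11 in cKO, and Cox6a1, Cox7a2l and Ndufa11 in control mice. All are part of the counts of called members given above and add no calls to them.

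In complex I 4 of 29 accessory and 1 of 7 core subunits were called in cKO mice, and 1 and 0 in control mice. Ndufa11, an accessory subunit of the membrane arm, had 82.9, 77.2, 82.5 and 86.3 CPM in LZ cKO and 100.2, 84.3, 98.5 and 92.2 in LZ control, against 98.1, 107, 114 and 112 in DZ cKO and 141, 99.8, 121 and 119 in DZ control. It was the complex I member called in both genotypes, at -0.39 ± 0.10 in cKO (edgeR adjusted p = 0.0173) and -0.36 ± 0.10 in control mice (adjusted p = 0.0311). Zones overlapped in control mice, where DZ library 2 fell below LZ library 1. Ndufs5, an accessory subunit on the side of the intermembrane space, had 22.1, 18.5, 24.0 and 25.0 CPM in LZ cKO and 22.0, 20.04, 24.2 and 26.3 in LZ control, against 26.0, 32.9, 35.3 and 38.5 in DZ cKO and 35.7, 27.5, 34.1 and 31.2 in DZ control. Its zones did not overlap in either genotype. The log2 fold change was -0.57 ± 0.14 in cKO (edgeR adjusted p = 0.0175) and -0.47 ± 0.14 in control mice (adjusted p = 0.0505, or 0.0138 with the block).

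Another 3 complex I members fell in cKO mice. Ndufab1, the mitochondrial acyl carrier protein, had a log2 fold change of -0.38 ± 0.11 in cKO (edgeR adjusted p = 0.0411) and -0.14 ± 0.11 in control mice (adjusted p = 0.562). Ndufc1, an accessory subunit of the membrane arm, had -0.41 ± 0.12 in cKO (edgeR adjusted p = 0.0398) and -0.30 ± 0.12 in control mice (adjusted p = 0.152). Ndufs8, which was picked out after its values were seen, is the core subunit among them and carries iron-sulphur clusters, with -0.35 ± 0.10 in cKO (edgeR adjusted p = 0.0454) and -0.23 ± 0.10 in control mice (adjusted p = 0.234). By role, all 7 core subunits had negative values in both genotypes, with 1 called in cKO and 0 in control mice. Of 29 accessory subunits, 28 were negative and 4 called in cKO mice, and 27 negative and 1 called in control mice. With the sort-day block Ndufa9 and Ndufa1 passed in cKO mice (-0.32 and -0.45, edgeR adjusted p 0.0119 and 0.0278), and Ndufa10 in control mice (-0.25, 0.0152).

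The assembly factors of complex I build the complex and are not part of it. None of the 8 was called by edgeR in either genotype, and at an unadjusted p under 0.05 stood Ndufaf4 in both genotypes and Ndufaf3 in control mice. Of the 8, 5 were negative in cKO and 4 in control mice, and their medians were -0.05 in cKO and -0.01 in control mice. Ndufaf4, which acts early in assembly, had 39.0, 31.0, 31.4 and 27.2 CPM in LZ cKO and 30.3, 38.1, 26.9 and 31.4 in LZ control, against 27.4, 20.7, 24.9 and 23.0 in DZ cKO and 26.4, 23.3, 21.9 and 23.1 in DZ control. It was higher in the light zone in both genotypes, without overlap in control mice, at 0.42 ± 0.13 in cKO (edgeR adjusted p = 0.0619, or 0.0339 with the sort-day block) and 0.42 ± 0.13 in control mice (0.0741, or 0.0388 with the block). Ndufaf4 was the 1 member that rose under the block in each genotype. The 9 tested complex I assembly factors whose symbols the rule leaves out had medians of 0.07 in cKO and 0.10 in control mice, with 0 called by edgeR and, at an unadjusted p under 0.05, 0 in cKO and 1 lower in control mice.

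Zone comparisons of cKO and of control mice share no library, but they share the 4 sort days and the fit's estimate of spread, so their lists are not independent. Of the 18 members called in a genotype, 7 were called in both, which is 41.2% of the cKO list and 87.5% of the control list. They are Ndufa11 of complex I, Sdhb and Sdhd of complex II, Cox6a1 and Cox7a2l of complex IV, and Atp5a1 and Atp5f1 of complex V. Uqcrc2 alone was called in control mice and not in cKO mice. In the interaction of zone and genotype edgeR called 0 genes of the whole table, and DESeq2 called 0 members. At an unadjusted p under 0.05, edgeR had 1 member lower, Ndufa4l2, and 0 higher (1.46% and 1.49% of all tested genes). The greater number of calls in cKO mice is thus not shown to be a difference between genotypes.

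**Figure D3:**
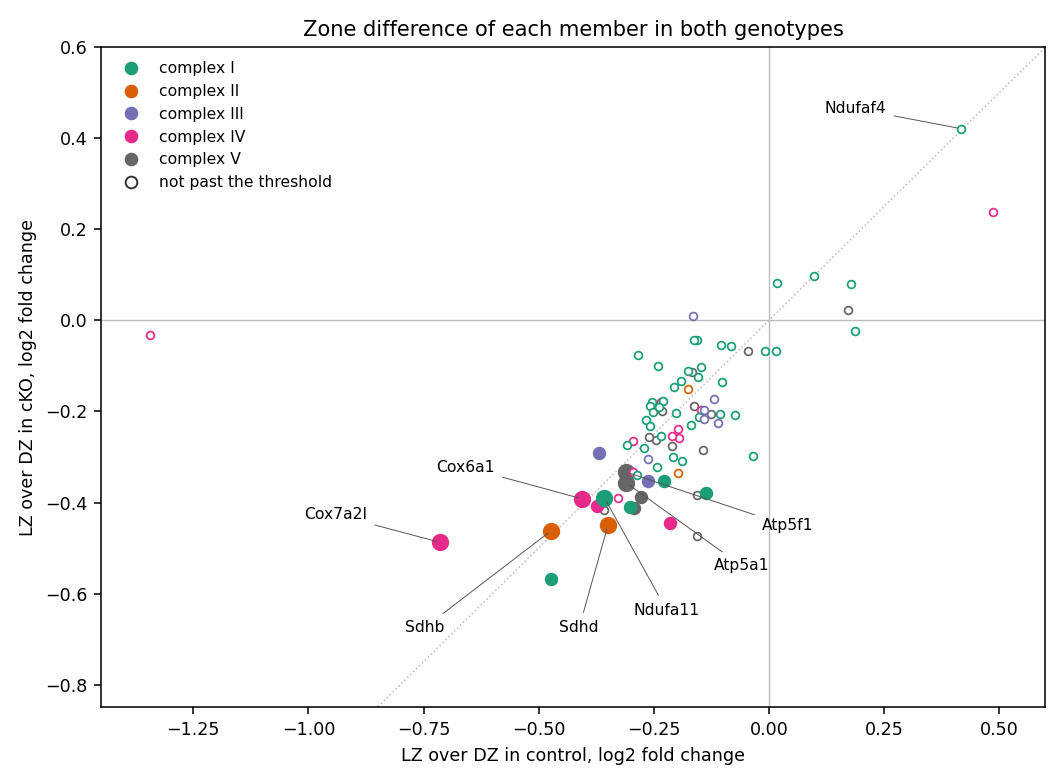
Log2 fold change of the light against the dark zone in cKO mice (vertical axis) and in control mice (horizontal axis), 1 point per tested member with an average log2 CPM above 0. Filled points passed an adjusted p of 0.05 in at least 1 genotype, and Ndufa4l2, called in cKO mice, is not drawn. The 7 members called in both genotypes lie in the lower left, between -0.31 and -0.71, and Ndufaf4 lies in the upper right at 0.42 on each axis.

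Sort days differed in how far the zones parted. The mean log2 CPM of the 88 members with an average log2 CPM above 0 was 6.14 ± 0.11 in LZ cKO and 6.23 ± 0.08 in LZ control, against 6.36 ± 0.10 in DZ cKO and 6.43 ± 0.15 in DZ control (SD, n = 4 each). The difference of light minus dark zone on sort days 1 to 4 was 0.00, -0.33, -0.29 and -0.27 in cKO and -0.34, -0.13, -0.16 and -0.15 in control mice. Day 1 had the smallest difference in cKO and the largest in control mice. The difference of cKO minus control on days 1 to 4 was -0.03, -0.14, -0.15 and -0.04 in the light zone and -0.36, 0.06, -0.02 and 0.07 in the dark zone, so the DZ libraries of day 1 were furthest apart. Complex II did not share this spread in cKO mice, with -0.32, -0.36, -0.35 and -0.37 over the 4 days, and had -0.37, -0.27, -0.24 and -0.32 in control mice. Complex I did, with 0.09, -0.31, -0.28 and -0.22 in cKO and -0.29, -0.09, -0.13 and -0.11 in control mice.

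**Figure D4:**
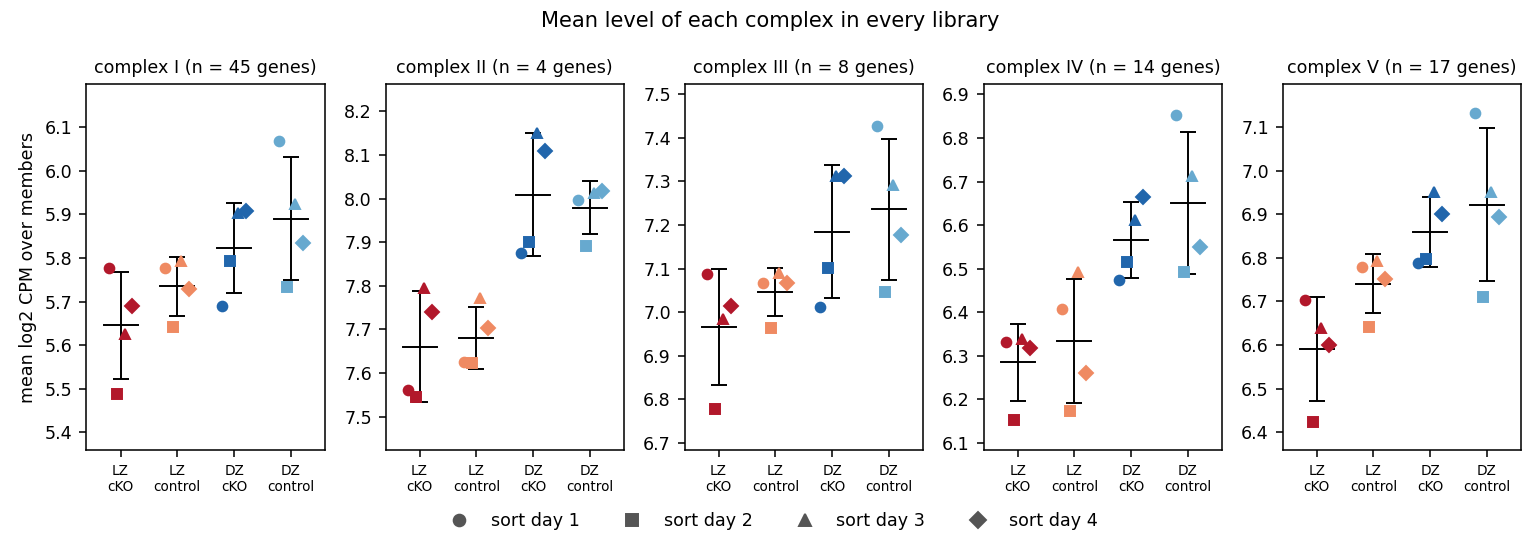
Mean log2 CPM of the members of each complex (vertical axes) in the 16 libraries by group (horizontal axes), with 1 symbol per sort day and the mean ± SD of 4 libraries. Complex II averages 7.66 in LZ cKO and 7.68 in LZ control, against 8.01 in DZ cKO and 7.98 in DZ control, and its zones do not overlap in either genotype.

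No member differed past the threshold between cKO and control mice in either zone. In the light zone edgeR called 0 of 91 lower and 0 higher in cKO than in control mice, where 0.393% of all tested genes fell and 0.69% rose. At an unadjusted p under 0.05, 6 members were lower and 0 higher (6.33% and 7.09% of all tested genes), and DESeq2 called 0. With the sort-day block 0 passed in the light zone (2.77% of all tested genes lower and 2.72% higher) and 0 in the dark zone (1.37% and 1.9%). In the dark zone edgeR called 0 lower and 0 higher (0.317% and 0.31%), with 4 members lower and 0 higher at an unadjusted p under 0.05 (4.69% and 6.67%), and DESeq2 called 0. Most members were slightly lower in cKO mice: 75 of 91 in the light zone, with a median of -0.09 beside 0.02 for all genes, and 66 of 91 in the dark zone, with -0.06 beside 0.01. That dark zone median was 0.04 in female mice alone and 0.05 without sort day 1. All 17 tested complex V members were negative in the light zone, with a median of -0.11, and the mean of complex V differed by -0.08, -0.22, -0.15 and -0.15 on sort days 1 to 4. In the dark zone 14 of 17 were negative, with a median of -0.06. These counts and medians describe the members and carry no test.

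Ndufaf8, a complex I assembly factor, had the largest difference between genotypes within complex I in both zones. It had 19.9, 19.1, 17.1 and 19.6 CPM in LZ cKO against 23.3, 22.5, 25.8 and 21.4 in LZ control, and 19.5, 19.1, 20.8 and 19.2 in DZ cKO against 30.1, 22.7, 24.8 and 22.3 in DZ control. No cKO library reached the lowest control library of its zone. It stood -0.30 ± 0.11 from control on the log2 scale in light zone cells (edgeR adjusted p = 0.232) and -0.35 ± 0.11 in the dark zone (adjusted p = 0.189), and neither passed. Groups not overlapping were found for 6 members in the light zone (4.12% of all tested genes) and 2 in the dark zone (3.13%), all lower in cKO mice. None was higher without overlap in either zone (4.53% and 3.25% of all tested genes).

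Others of the largest differences without a call, among members with an average log2 CPM of at least 3, were these. Atp5g1, a c subunit gene, averaged 38.0 ± 4.48 CPM in LZ cKO against 45.8 ± 4.64 in LZ control (-0.27 ± 0.13, edgeR adjusted p = 0.386). Uqcr11, a small subunit of complex III, averaged 57.8 ± 5.21 CPM in LZ cKO against 67.4 ± 2.24 in LZ control without overlap (-0.22 ± 0.13, edgeR adjusted p = 0.490), and had -0.14 in the dark zone. No complex II member differed by more than 0.08 in either zone. Sdhb differed by 0.00 ± 0.09 in the light and -0.01 ± 0.09 in the dark zone, and Sdhd by -0.06 ± 0.09 and 0.04 ± 0.09. In the dark zone the members at or above that level with the largest difference in complexes II, IV and V were Sdhc (0.08), Cox8a (-0.19) and Atp5mpl (-0.14), with edgeR adjusted p of 0.855, 0.612 and 0.769.

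The rest of the pathway was read from lists of genes that the symbol rule leaves out. The 11 tested subunits encoded by mitochondrial DNA had positive medians where the members had negative ones, at 0.45 in cKO and 0.12 in control mice for the light against the dark zone. None was called by edgeR, and 0 had an unadjusted p under 0.05 in either genotype. With the sort-day block 7 of them passed as higher in cKO mice and 0 in control mice (8.28% and 7.19% of all tested genes). Among these mt-Cytb, the cytochrome b of complex III, had 0.46 ± 0.34 (edgeR adjusted p with the block 0.00388) and mt-Nd5, a proton-pumping subunit of complex I, 0.63 ± 0.40 (0.00151). Both standard errors come from the fit without the block, so they do not belong to the p-values beside them. The share of gene counts held by all 13 such subunits moved with the sort day: it was 0.995%, 0.761%, 0.518% and 0.468% in LZ cKO and 0.876%, 0.631%, 0.511% and 0.351% in LZ control, against 0.750%, 0.474%, 0.397% and 0.337% in DZ cKO and 0.842%, 0.543%, 0.506% and 0.293% in DZ control on days 1 to 4. Day 1 was highest and day 4 lowest in each group, and the part of this in the result was not tested.

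The TCA cycle, whose succinate dehydrogenase step is complex II, had negative medians too. Of 16 genes tested, 4 fell in the light zone of cKO mice and 0 of control mice by edgeR (4.18% and 3.33% of all tested genes). With the sort-day block 6 and 4 fell (8.99% and 6.53% of all tested genes). At an unadjusted p under 0.05, 4 were lower in cKO and 5 in control mice (11.8% and 9.22%). The list had medians of -0.16 in cKO and -0.15 in control mice. The called genes were Idh3g, a subunit of isocitrate dehydrogenase (-0.34 in cKO, edgeR adjusted p = 0.00635), Mdh2, malate dehydrogenase (-0.34, 0.0185), Sucla2, a subunit of succinyl-CoA ligase (-0.36, 0.0215), and Fh1, fumarase (-0.55, 0.0252). In control mice Fh1 had -0.45, Idh3g -0.23 and Mdh2 -0.24. These 3 enzymes passed there with the block (edgeR adjusted p 0.00403, 0.0218 and 0.00533), as did Suclg2 (-0.58).

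Of 9 tested nuclear subunits and electron carriers outside the rule, Etfa, which hands electrons from fatty acid oxidation to the chain, fell in both genotypes (-0.45 ± 0.12 in cKO, edgeR adjusted p = 0.0212, and -0.47 ± 0.12 in control mice, 0.0206). Dhodh, the pyrimidine synthesis enzyme that feeds the ubiquinone pool, rose in control mice (0.59 ± 0.17, edgeR adjusted p = 0.0432) and had 0.17 in cKO mice. Of 34 tested assembly factors of complexes II to V, 1 fell in cKO and 0 in control mice (4.18% and 3.33% of all tested genes). The 1 was Cmc2 of complex IV (-0.42, edgeR adjusted p = 0.0476). At an unadjusted p under 0.05, 3 were lower in control mice (9.22% of all tested genes). These assembly factors had medians of -0.01 in cKO and 0.09 in control mice. Between genotypes, the lowest p on this list belonged to Atpaf2, which helps to build the head of ATP synthase. It averaged 35.8 ± 5.09 CPM in LZ cKO against 52.0 ± 7.49 in LZ control (-0.54 ± 0.13, edgeR adjusted p = 0.0522, or 0.00902 with the block), and 47.1 ± 5.30 in DZ cKO against 62.6 ± 5.19 in DZ control (-0.41 ± 0.13, 0.167, or 0.0400).

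Regulators of these genes did not move alike. Among 13, Myc rose in the light zone in cKO (0.92 ± 0.16, edgeR adjusted p = 0.00172) and in control mice (1.23 ± 0.16, 0.000183), and no other passed without the sort-day block. With the block 2 rose and 1 fell in cKO mice (8.28% and 8.99% of all tested genes). In control mice 1 rose and 0 fell with it (7.19% and 6.53%). Nrf1 had -0.25 in cKO and -0.22 in control mice, and Gabpa, an ETS factor, -0.29 and -0.29. Each had an edgeR adjusted p over 0.05 without the block. The median of the 13 was -0.03 in cKO and -0.04 in control mice. Between genotypes edgeR called 0 of the 13 in either zone, with 1 lower at an unadjusted p under 0.05 in the light zone and 0 in the dark zone.

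Markers of the zones and of other cells differed between groups, and their part in the results was not tested. Of 7 dark zone markers 5 fell in the light zone in cKO and 4 in control mice, with summed levels of 1037 to 1625 CPM in LZ cKO and 1157 to 1557 in LZ control, against 1981 to 2496 in DZ cKO and 2087 to 2503 in DZ control. The 8 light zone markers summed to 2117 to 2478 CPM in LZ cKO and 2306 to 2716 in LZ control, against 572 to 785 in DZ cKO and 671 to 819 in DZ control. Plasma cell markers (5) summed to 1149 to 2122 CPM in LZ cKO and 1233 to 1991 in LZ control, against 2277 to 10664 in DZ cKO and 2591 to 7572 in DZ control, with 1, Jchain, lower in the light zone of cKO mice. T and NK cell markers (9) summed to 77.3 to 319.8 CPM in LZ cKO and 76.7 to 267 in LZ control, against 62.1 to 189.9 in DZ cKO and 22.2 to 152 in DZ control. Macrophage markers (10) were all higher in cKO than in control mice in both zones, without a call in the fit without the block. With the sort-day block 1 passed as higher in cKO in the light zone and 3 in the dark zone (2.72% and 1.9% of all tested genes). Their sums were 78.2 to 487 CPM in LZ cKO against 23.3 to 389.9 in LZ control, and 43.5 to 1223 in DZ cKO against 14.7 to 403 in DZ control.

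The other marker lists were low, apart from that of the sorted cells. Neutrophil markers summed to 16.8 to 58.5 CPM in LZ cKO and 0 to 68.8 in LZ control, against 41.0 to 93.0 in DZ cKO and 2.41 to 58.7 in DZ control. Erythroid markers summed to 24.2 to 32.1 CPM in LZ cKO and 14.1 to 32.9 in LZ control, against 16.4 to 30.8 in DZ cKO and 8.34 to 21.3 in DZ control. The 9 markers of germinal centre B cells summed to 8968 to 13788 CPM in LZ cKO and 14585 to 15942 in LZ control, against 10986 to 21565 in DZ cKO and 14545 to 22582 in DZ control. The LZ cKO libraries lay wholly below the LZ control libraries in this sum, and the DZ groups overlapped. Of the marker genes, 1 neutrophil gene was at 0 in LZ cKO and 1 in DZ control.

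A second assay, iCLIP, maps where PTBP1 is crosslinked to RNA by counting truncated cDNAs at single positions. Its material was B cells from the spleens of female mice after 48 h in culture with LPS, not germinal centre cells, and no control precipitation was analysed beside the 5 replicates. The summed list of significant sites holds 244659 sites and 432167 cDNAs. All 97 members have a RefSeq position, and 76 also have a strand, which was taken from the promoter table. Of these 76, 34 (44.7%) held a site on their strand, compared with 5029 of 9815 tested protein-coding genes (51.2%). Members without a strand were not searched. Members are short, with a median span of 7495 bases beside 22879 for those genes. The part of span or of expression level in these shares was not tested. The 76 members include genes too low to be tested between groups, such as Cox7b2 and Cox8b with 0 counts, whereas the comparison set holds tested genes only. The 210 sites in members held 338 cDNAs, or 0.0782% of all cDNAs at sites. A site was found for 18 members in at least 1 single replicate list, 16 of them among the 34.

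The cDNAs were concentrated in few members. Ndufs7, a core iron-sulphur subunit of complex I, held 66 cDNAs at 9 sites, was bound in 4 replicate lists and had 50 of its cDNAs in replicate 4. Ndufs4, an accessory subunit with a span of 100300 bases, held 38 cDNAs at 36 sites. Atp5c1, the gamma subunit of the head, held 24 cDNAs, Ndufa7 and Ndufab1 21 each, Cox6b1 18, Sdha 17 and Atp5b 12. Of the 7 members that fell in both genotypes 6 have a strand, and the other, Atp5a1, was not searched for sites. In the summed list Sdhb, Sdhd and Ndufa11 held 0 cDNAs, although Sdhb had 1 site of 1 cDNA in the list of replicate 2. Atp5f1 held 1, Cox7a2l 2 and Cox6a1 3. Ndufs5, Ndufc1, Ndufs8 and Atp5j, which fell in cKO mice, held 0 too, Ndufa4 held 4 and Uqcrc1 5. By complex, among the members searched, a site was found in 18 of 39 in complex I and 1 of 3 in complex II. It was found in 1 of 5 in complex III, 7 of 14 in complex IV and 7 of 15 in complex V.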

How the data were processed

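Raw counts per gene came from the deposited HTSeq tables of 16 libraries. Per the labels' protocols they were made from 2 ng of RNA with SMART-Seq v4, and reads were trimmed with Trim Galore 0.4.2, aligned with HISAT2 to GRCm38 and counted with HTSeq, per the submitters' processing notes. No source used here gives the annotation release or the strand setting. The 5 lines that name no gene (41.4% to 49.8% of a file's total) were left out. iCLIP values are the signed cDNA scores of the authors' deposited lists of significant sites, whose sign is the strand.

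All 16 libraries entered 1 edgeR 4.0.16 fit (R 4.3.3, limma 3.58.1) with TMM scaling, filterByExpr at a minimum count of 10, robust quasi-likelihood dispersions and Benjamini-Hochberg adjustment over 15789 genes. CPM are TMM-scaled, and log2 CPM used a prior count of 2. DESeq2 1.42.0, other filters and scalings, the sort day or pool as a block, single sexes and left-out libraries were alternatives. The labels say that a library number marks a shared sort day, and 1 pool gave both zones. Deviations of libraries of 1 day correlated at 0.0944 to 0.390 over all genes and at -0.687 to 0.715 over the members. Replicate pools are separate mice. The code of the fit was tried on simulated counts with planted changes. These had no sort-day or pool effect and less spread than the libraries, whose common biological coefficient of variation was 40.3%. The trial thus does not show how the fit performs on these data. Libraries of a group differed by more than counting noise (chi-square per degree of freedom 23.8 to 183).

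Members and gene lists were chosen with earlier results of these data known. Genes were named if called (the 12 of largest change where more were called), if largest in a complex with no call, these 2 choices at an average log2 CPM of at least 3, if an isoform, if their call changed with the block, or if a single library stood apart. Positions and promoters come from RefSeq tables of GRCm38. No genome or protein table was used here.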

Additional observations from a re-analysis of the deposited data

Results flagged for a closer look

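Dixon's test asks whether the highest or lowest of 4 libraries stands apart from the other 3, and chance flags about 1 in 20 groups. Of 192 groups of 4 libraries examined, 7 stood out. In LZ cKO, library 2 was lowest for Cox6a1, at 226 CPM beside 264 to 269.5, for Ndufa9, at 90.3 CPM beside 109.8 to 113, and for the mean log2 CPM of complex IV, at 6.15 beside 6.32 to 6.34. In LZ control, library 2 was lowest for Ndufa9, at 106 CPM beside 117 to 118, and for Atp5mpl, a small membrane subunit of ATP synthase, at 54.7 CPM beside 61.5 to 62.8. Cox7c, subunit VIIc of complex IV, was highest in LZ cKO library 1, at 14.8 CPM beside 9.48 to 10.2. Ndufa4l2 was highest in LZ control library 1, at 0.615 CPM beside 0.0665 to 0.0976. LZ libraries 2 of both genotypes came from sort day 2. The tested members among the 46 named ones were also compared by day. None moved one way in all pairs of one genotype and the other way in all pairs of the other. None passed in the interaction of zone and genotype.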

How the results depend on the processing

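The counts of called members depended on the fit, and no alternative called more than 1 member higher in the light zone. Light against dark zone, 17 members were called in cKO and 8 in control mice. With the sort day as a replicate block the counts were 33 in cKO and 18 in control mice, and with the pool as a block 33 and 16, and the block changed no count between genotypes. Without the filter on low counts they were 11 and 3, with only the groups compared in the fit 4 and 5, in male mice 1 and 0, in female mice 3 and 1, and without sort day 2, an alternative chosen after seeing the data, 4 and 5. Without sort day 1, also chosen after, control mice gave 2, and DESeq2 gave 15 in control mice. Leaving out 1 library gave 4 to 22 in cKO and 2 to 10 in control mice. The smaller fits hold fewer libraries, and the cause of the other changes was not tested. Median log2 fold changes stayed negative between zones without any 1 library, at -0.29 to -0.18 in cKO and -0.28 to -0.15 in control mice. Between genotypes no alternative called a member, in either zone or in the interaction. The dark zone median of cKO against control was 0.04 in females, 0.05 without sort day 1 and -0.13 to 0.0049 without 1 library. Of the 34 members with an iCLIP site, 18 had one of 2 or more cDNAs. Replicate lists in place of the summed list gave 18 members, 16 of them among the 34. Of 62 results on named members under up to 26 alternatives, 8 values of 1256 reversed. For cKO against control in the dark zone these were Sdhc in males (-0.082), Uqcr11 in females (0.015) and without sort day 1 (0.056), and Atp5mpl without sort day 1 (0.011). For the interaction they were Ndufaf2 in males (0.10), Uqcrh in females (-0.074) and without sort day 1 (-0.043), and Cox7c in males (0.045). Another 186 lost and 84 gained a call. With 4 libraries per group, the smallest called zone difference among members was 0.33 in cKO and 0.31 in control mice in log2 size.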
